A study of Mus musculus with 50 samples.

Results

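The MHC class II genes and the invariant chain were measured in 18-month-old mouse liver by CosMx spatial imaging, in which fluorescent probes count single RNA molecules of a fixed gene panel inside segmented cells of a tissue section. The 8 members are the class II genes of the panel and Cd74, chosen by name, out of 1000 gene targets: H2-Aa, H2-Ab1, H2-Eb1, Cd74, H2-DMa, H2-DMb1, H2-DMb2 and H2-Ob. Control livers came from wild-type C57BL/6 mice and HIRA KO livers from HIRA fl/fl C57BL/6 mice. Every mouse, controls included, was given AAV8 Tbg-Cre when 6 months old, and its liver was taken 12 months later. HIRA loads histone H3.3 onto chromatin outside DNA replication. The Tbg promoter restricts Cre to hepatocytes, so leukocytes, endothelial cells and biliary cells of HIRA KO livers were not the target of the deletion. By lineage tracing, however, the paper reports many hepatocyte-derived cells with the biliary protein CK19 in HIRA fl/fl livers, and few in wild type. Whether cholangiocyte-like cells of HIRA KO areas descend in part from hepatocytes that received Cre was not tested here. Hira itself is not on the panel, so the deletion could not be checked here.

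The section slide held 50 fields of view, 25 per genotype, in 6 separate tissue areas. Replicates here are tissue areas (n = 3 per genotype), because the labels name the genotype of each field but no mouse. The study's methods name biological replicates for this assay, and the number of areas fits that account, but no label ties an area to a mouse, so p-values measure the spread between areas. Since each genotype took up its own side of the slide, genotype and side cannot be told apart. Areas of the same number lay in the same row of the slide and deviated from their group means together, so each fit was made without and with the row as a block. HIRA KO areas also held more transcripts in all: 10.8 ± 0.473 gene counts per 1000 square pixels of cell (SD, n = 3) against 7.09 ± 1.33 in Control, with no overlap. Levels are therefore given as counts per 1000000 gene counts of the same cells (CPM), and whether the difference in total signal had a part in any result was not tested. After cells with fewer than 20 counts or an outsized area were left out, 49665 cells remained, with 718991 to 1542205 gene counts per area, and counts of negative probes, which match no mouse RNA, made up 0.363% to 0.451% of the counts in an area.

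MHC class II molecules carry peptides from the endosome to the surface of antigen-presenting cells, where CD4+ T cells read them. The alpha and beta chains assemble in the endoplasmic reticulum with the invariant chain, encoded by Cd74, which fills the peptide groove and steers the complex to the endosome. There H2-M, built from H2-DMa with H2-DMb1 or H2-DMb2, exchanges the remnant of the invariant chain for peptide, and H2-O, which contains the H2-Ob chain, restrains H2-M. In the liver, dendritic cells, B cells and Kupffer cells, the resident macrophages, are the main class II cells, and sinusoidal endothelium carries lower amounts. Interferon gamma raises class II through the transactivator CIITA.

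On the GRCm38 build with GENCODE vM21 genes, 7 of the 8 members lie on chromosome 17. The peptide-exchange genes come first, with H2-DMa at chr17:34119541-34139101, H2-DMb2 at chr17:34143307-34151555 and H2-DMb1 at chr17:34153072-34160230, all on the plus strand. They are followed by H2-Ob at chr17:34238903-34254414, H2-Ab1 at chr17:34257689-34269419, H2-Aa on the minus strand at chr17:34282744-34287823, and H2-Eb1 at chr17:34305867-34316674. Cd74 lies on another chromosome. The transcripts of H2-DMb1 and H2-DMb2 share 40.9% of their 25-base windows and an identical run of 221 bases, so the split of counts between that pair is uncertain. H2-Ab1 and H2-Eb1 share 1.18% of theirs.

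Class II promoters are known for an X box, bound by the RFX complex and neighbouring factors, and a Y box, an inverted CCAAT sequence bound by NF-Y; CIITA docks on this assembly. Promoter windows of 250 bases before to 50 after the RefSeq start were matched for 6 of the members. The stretches below, from GRCm38.p6 and running from 130 to 31 bases before the start on the gene's own strand, are shown because they hold the Y box and, in 3 of the 4, the X pattern. Capitals mark the Y box core GATTGG and, before it, the X pattern, which is AAC and then, after any 2 bases, ATGATG.
H2-Eb1 (chr17:34305737-34305836, plus strand): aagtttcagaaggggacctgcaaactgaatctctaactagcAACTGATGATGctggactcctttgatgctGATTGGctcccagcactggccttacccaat
H2-Ob (chr17:34238775-34238874, plus strand): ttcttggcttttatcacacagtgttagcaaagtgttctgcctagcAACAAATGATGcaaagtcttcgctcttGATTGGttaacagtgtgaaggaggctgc
H2-DMb2 (chr17:34145119-34145218, plus strand): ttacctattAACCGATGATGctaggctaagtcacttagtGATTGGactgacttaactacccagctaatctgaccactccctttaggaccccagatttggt
H2-Aa (chr17:34287854-34287953, minus strand): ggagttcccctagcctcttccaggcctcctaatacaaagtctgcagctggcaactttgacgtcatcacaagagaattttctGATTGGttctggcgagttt

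The H2-Eb1, H2-Ob and H2-Aa stretches lie upstream of the gene, and the H2-DMb2 stretch lies within the first intron of a longer GENCODE transcript. In H2-Eb1 the X pattern and the Y core were 18 bases apart, in H2-DMb1 and H2-DMb2 19, and in H2-Ob 16. H2-Aa held the Y core alone, and neither of the H2-DMa windows held the X pattern. Searched on both strands, the Y core was found in 16.1% of 32851 promoter windows and the X pattern in 0.137%, and 0.0335% held both. Of the 720 panel genes with a window, 4 held both, and these were H2-DMb1, H2-DMb2, H2-Eb1 and H2-Ob. The pattern was written after the member sequences had been read, so this share describes the members and is no test, and a window without a match says only that these letters are not in it.

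Over all kept cells the 8 members gave 113090 counts, 1.65% of all gene counts. Against the brightest of the 10 negative probes, Cd74 stood 10.4-fold higher, H2-Ab1 6.50-fold, H2-Aa 4.56-fold and H2-Eb1 3.35-fold. The accessory genes were close to that floor, with ratios of 1.44 for H2-DMa, 1.28 for H2-DMb2, 1.14 for H2-DMb1 and 0.867 for H2-Ob. In B-like cells the same ratios were 124 for Cd74, 12.4 for H2-DMb2, 7.13 for H2-Ob, 6.89 for H2-DMa and 5.32 for H2-DMb1. All members were thus above background there in the sum over areas, but not in each area. H2-Ob, for example, had 7, 0 and 10 counts in B-like cells of the Control areas and 107, 13 and 134 in HIRA KO. Levels of different genes are not compared with each other, since probe efficiency differs between targets.

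H2-Aa, the alpha chain of I-A, was at 2227, 1061 and 1814 CPM over all cells of Control areas 1, 2 and 3, and at 3837, 1794 and 3948 CPM in HIRA KO areas 1, 2 and 3. Its partner H2-Ab1, the I-A beta chain, was at 3411, 1723 and 3573 CPM in Control and at 4275, 2716 and 5758 CPM in HIRA KO. H2-Eb1, the I-E beta chain, was at 1605, 960 and 1730 CPM in Control and at 2726, 1399 and 2559 CPM in HIRA KO. In all of these genes the second area of either genotype was the lowest, and HIRA KO area 2 fell below at least 1 Control area, so the groups overlapped. Cd74, which lies on chromosome 18 from 60803848 to 60812652, repeated the pattern, with 5557, 2113 and 4931 CPM in Control and 8600, 3804 and 9017 CPM in HIRA KO.

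The peptide-exchange genes lay in a narrow range. H2-DMa was at 654, 812 and 839 CPM in Control and at 904, 764 and 839 CPM in HIRA KO. H2-DMb1 was at 620, 527 and 643 CPM against 734, 580 and 708 CPM, and H2-DMb2 at 680, 608 and 695 CPM against 866, 569 and 863 CPM. H2-Ob was at 425, 432 and 481 CPM in Control and at 590, 452 and 501 CPM in HIRA KO. The mean negative probe ran from 364 to 453 CPM in Control and from 404 to 452 CPM in HIRA KO, so H2-Ob was near background over all cells, and none of these genes separated the genotypes. Of the 8 members, 0 had all HIRA KO areas above all Control areas, against 2.51% of the 998 genes tested.

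**Figure D1:**
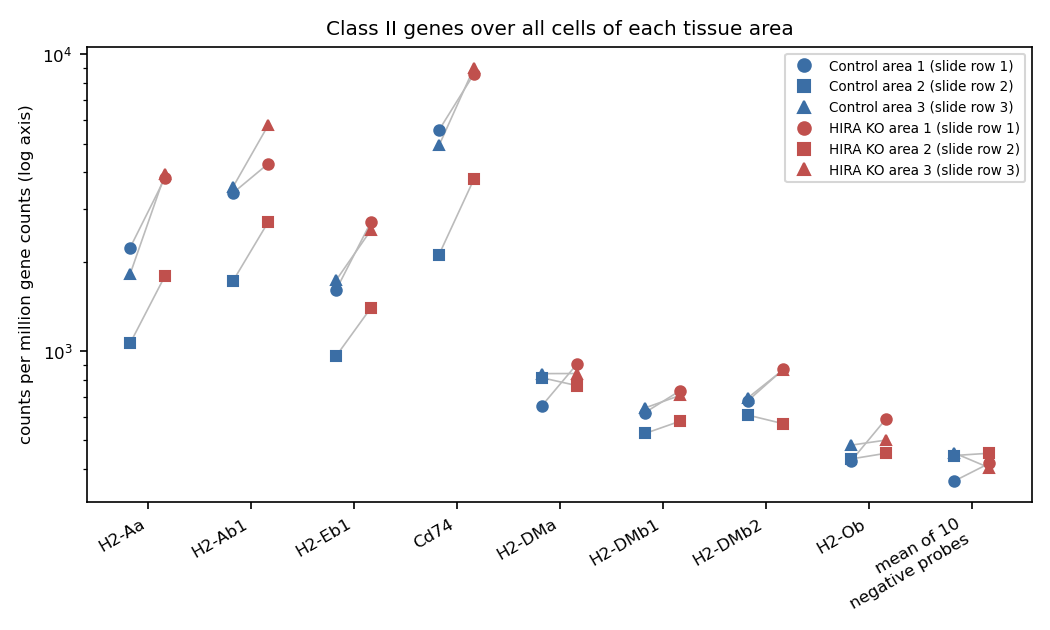
CPM over all kept cells (vertical axis) for each of the 8 members and the mean negative probe (horizontal axis), with 1 point per tissue area, marked by its slide row. Within each row the HIRA KO point lies above its Control point for H2-Aa, H2-Ab1, H2-Eb1 and Cd74, while H2-DMa, H2-DMb1, H2-DMb2 and H2-Ob lie between 425 and 904 CPM.

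In edgeR's quasi-likelihood test of the area sums, with Benjamini-Hochberg adjustment over all 998 genes, 0 of 8 members passed an adjusted p of 0.05, against 0.200% of all genes called higher in HIRA KO. The log2 fold change was 1.03 ± 0.33 (SE, adjusted p = 0.571) for H2-Aa, 0.88 ± 0.42 (0.671) for Cd74, 0.75 ± 0.28 (0.571) for H2-Eb1 and 0.67 ± 0.34 (0.672) for H2-Ab1. At an unadjusted p under 0.05 the fit gave 73 genes, and DESeq2 called 10 genes, 0 of them members. All 8 members had a fold change above 0, with a median log2 fold change of 0.82 over the classical chains and Cd74 and 0.31 over H2-DMa, H2-DMb1, H2-DMb2 and H2-Ob, where the median of all genes was -0.01.

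With the slide row as a block, the same edgeR test called 4 of 8 members higher in HIRA KO, against 1.60% of all genes. H2-Aa rose by a log2 fold change of 1.003 (adjusted p = 0.00143), H2-Eb1 by 0.74 (0.0026), Cd74 by 0.90 (0.0216) and H2-Ab1 by 0.67 (0.049). The accessory genes did not pass. Row by row, the ratio of HIRA KO to Control CPM was 1.72, 1.69 and 2.18 for H2-Aa and 1.55, 1.80 and 1.83 for Cd74. It was 1.70, 1.46 and 1.48 for H2-Eb1, and 1.25, 1.58 and 1.61 for H2-Ab1. The ratio was thus above 1 in each row for these genes, while the second row was the lowest in level. Higher HIRA KO values in all 3 rows were found for 6 of 8 members, against 6.81% of all genes, and the exceptions were H2-DMa and H2-DMb2, both at 0.94 in the second row.

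Summed over the 8 members, the level was 15178, 8235 and 14705 CPM in Control and 22534, 12077 and 24194 CPM in HIRA KO. The means were 12706 ± 3879 and 19602 ± 6569 CPM (SD, n = 3 areas; exact permutation p = 0.3, two-sided, where 0.1 is the smallest p possible). Per 1000 square pixels of cell the groups did not overlap, with 0.0982, 0.0710 and 0.0908 counts in Control against 0.232, 0.131 and 0.272 in HIRA KO (exact permutation p = 0.1), but all gene counts were also denser in HIRA KO. Outside the segmented cells the summed level averaged 13318 ± 7467 CPM for Control against 19846 ± 10427 for HIRA KO (exact permutation p = 0.4).

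To follow the members across cell types, cells were clustered without the 8 genes, and clusters were named from marker lists. The leading genes of the B-like cluster included Cd79a, Ighd and Ms4a1, and those of the Kupffer-like clusters Cd5l, C1qb and Marco or Cd163. The largest Kupffer-like cluster also had the hepatocyte genes Ttr and Gc among them, and the smallest was led by Fpr1, Bid and Ido1. The monocyte/dendritic-like cluster was led by Lgals3, Itgax, Psap and Ccr2, the endothelial-like cluster by Eng and Kdr, and the cholangiocyte-like cluster by Spp1, Clu and Sox9. Ciita, the transactivator gene, stood among the 10 leading genes of the B-like and the monocyte/dendritic-like clusters. Clusters with mixed or too few markers were left unnamed and are given by their leading genes. Segmented cells hold some transcripts of their neighbours, and no doublet caller was run, so a low level in any class may include RNA of cells beside it.

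The summed level was highest in an unnamed cluster led by S100a4, Cd52 and Crip1 (74349 ± 18750 CPM, SD over 6 areas), in B-like cells (62613 ± 24097), in an unnamed macrophage-gene cluster led by Gpnmb, Ctsd and Lgals3 (57065 ± 20259) and in monocyte/dendritic-like cells (54667 ± 10858). These neighbours in the order did not separate: each lay above the next in 4 of 6 areas. In the same order, the fewest cells in an area were 8, 23, 16 and 51. The unnamed cluster led by Dcn, Cd5l and C1qc followed at 37933 ± 11751 CPM, then Kupffer-like cells at 33585 ± 10058 and T/NK-like cells at 28574 ± 9248. Kupffer-like cells lay above T/NK-like cells in 5 of 6 areas (sign-flip exact permutation p = 0.0625, adjusted 0.125 over 14 neighbour pairs).

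Parenchymal and stromal classes were lower by the mean. Smooth muscle/myofibroblast-like cells had 23424 ± 6717 CPM, stellate/fibroblast-like cells 17085 ± 5043, cholangiocyte-like cells 16306 ± 5902, endothelial-like cells 10294 ± 2277 and hepatocyte-like cells 8036 ± 1401. Background put at 8 mean negative probes was 3868 CPM in hepatocyte-like and 3000 CPM in endothelial-like cells, so the summed level was above background in both. Against the brightest negative probe, Cd74 stood 3.37-fold higher in hepatocyte-like and 5.50-fold in endothelial-like cells. The accessory genes were near that floor, at 0.569 (H2-Ob) to 1.02 (H2-DMa) times it in hepatocyte-like cells. In endothelial-like cells they ran from 0.911 (H2-DMb1) to 1.28 (H2-DMa). Cholangiocyte-like cells lay above endothelial-like cells in 6 of 6 areas, as did monocyte/dendritic-like cells above the Dcn, Cd5l, C1qc cluster (each sign-flip exact permutation p = 0.03125, the smallest that 6 areas allow, and 0.0875 adjusted over the 14 pairs). No pair of neighbours passed after adjustment.

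**Figure D2:**
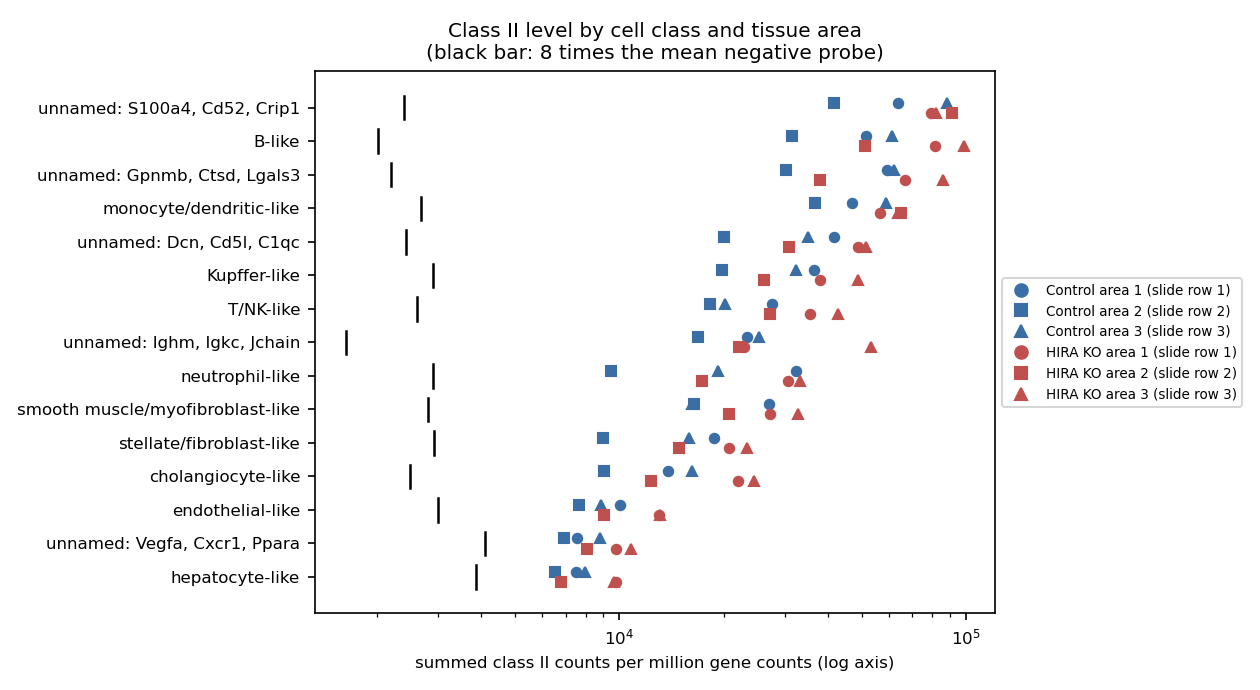
Summed level of the 8 members in CPM of the class (horizontal axis, logarithmic) by cell class, with 1 point per tissue area, and a black bar at 8 times the mean negative probe of the class. B-like, monocyte/dendritic-like and Kupffer-like cells stand above endothelial-like cells, neutrophil-like cells overlap smooth muscle/myofibroblast-like cells, and hepatocyte-like cells are lowest at 8036 CPM by the mean of 6 areas, which still exceeds their background of 3868 CPM.

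Thinned to 20 counts per cell, so that depth does not set the share, 60.3% of B-like cells, 46.8% of monocyte/dendritic-like cells and 42.7% of Kupffer-like cells held a count of any member (86.0%, 72.7% and 82.7% before thinning, at median depths of 148, 88 and 126 gene counts). Endothelial-like cells gave 15.5% and hepatocyte-like cells 13.9% (44.4% and 52.9% before thinning, at median depths of 83 and 131). Hepatocytes are not counted among class II cells in healthy liver, and their share is given for comparison. Background counts were not taken off any of these shares. Background, put as above, was 3868 CPM in hepatocyte-like and 3000 CPM in endothelial-like cells, against summed levels of 8036 and 10294 CPM. What part of these shares was background, free RNA or neighbouring RNA was not tested. In monocyte/dendritic-like cells the thinned share was 38.6 ± 9.29% in Control areas and 55.1 ± 2.71% in HIRA KO areas (SD, n = 3), without overlap (exact permutation p = 0.1, the smallest possible). The genotypes overlapped in every other set examined, among them B-like cells (49.9 ± 13.1% against 70.6 ± 12.9%, exact permutation p = 0.2), Kupffer-like cells (39.7 ± 9.51% against 45.8 ± 11.5%, p = 0.5) and all cells (18.2 ± 3.89% against 24.7 ± 5.92%, p = 0.3).

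The make-up of the class II set was compared between B-like and Kupffer-like cells, and no gene passed after adjustment. Per 100 Cd74 counts, with the mean negative probe taken off, H2-DMb2 gave 8.79 ± 2.47 counts in B-like and 2.63 ± 2.24 in Kupffer-like cells (SD, n = 6 areas), a difference of 6.16 counts, with B-like cells higher in 6 of 6 areas (sign-flip exact permutation p = 0.03125, adjusted 0.219 over 7 genes). The lowest Kupffer-like value, -0.61, was below background. H2-Ob, the restraining chain known from B cells, gave 4.46 ± 4.24 against 1.60 ± 0.81 and was higher in B-like cells in 4 of 6 areas (exact permutation p = 0.188, adjusted 0.306). H2-DMa stood at 8.04 and 8.07 counts in the respective classes. B-like cells numbered only 23 to 303 per area, which limits these ratios most for H2-Ob.

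Within classes, tested where every area had 50 cells or more, each classical chain and Cd74 had a fold change above 0 in 9 of 9 classes, most of them short of the test's threshold. The edgeR log2 fold change ran from 0.43 to 0.91 for H2-Aa, from 0.19 to 0.76 for H2-Ab1, from 0.24 to 0.85 for H2-Eb1 and from 0.30 to 0.75 for Cd74. The accessory genes were above 0 in 7 of 9 classes for H2-DMa and H2-DMb2, 9 of 9 for H2-DMb1 and 6 of 8 for H2-Ob, with none called in any class. These signs come from edgeR's TMM scaling, which differs from CPM, and the smallest H2-DMb1 value was 0.003. In hepatocyte-like cells all 8 members were above 0, yet by CPM each accessory gene was higher in only 1 of 3 rows. The sign of accessory genes near 0 thus depended on the scaling. In these fits the median log2 fold change of the accessory genes was below that of the classical chains and Cd74 in all classes tested but monocyte/dendritic-like cells (0.56 against 0.37). It was below 0 in Kupffer-like cells alone (-0.06 against 0.58). B-like cells fell under the cell minimum in Control area 2 and HIRA KO area 2 and were not tested. Their H2-Aa level was 7976, 2787 and 6422 CPM in Control and 13884, 7806 and 16005 CPM in HIRA KO, and Cd74 was at 22349, 11545 and 23472 CPM against 34416, 19204 and 42465 CPM. The second area was again the lowest of each genotype and the groups overlapped. Control area 2 rested on 23 B-like cells with 7 H2-Aa counts. In HIRA KO area 1, 232 of 303 B-like cells lay in 1 field of view, and in HIRA KO area 3, 191 of 240.

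Without the block, the 1 call among the members was H2-Aa in endothelial-like cells. It was at 1473, 973 and 986 CPM in Control and at 2181, 1197 and 2106 CPM in HIRA KO. HIRA KO area 2 thus fell below Control area 1. The log2 fold change was 0.73 ± 0.19 (SE; edgeR adjusted p = 0.0494), where 0.401% of all genes were called higher. The call held in 5 of 15 alternatives, with adjusted p from 0.000788 to 0.789 and a log2 fold change from 0.36 to 0.98, and it was lost on leaving out either Control area 2 or 3, or either HIRA KO area 1 or 3. Cd74 in these cells was at 3154, 1722 and 2341 CPM in Control and at 4327, 2494 and 4213 CPM in HIRA KO, and H2-Eb1 at 1171, 738 and 1070 CPM against 1486, 1026 and 1491 CPM. Both were lowest in the second area of each genotype, and neither passed without the block.

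With the row as a block, endothelial-like cells had 2 members called, H2-Aa (log2 fold change 0.71) and Cd74 (0.66, both edgeR adjusted p = 0.000788), against 1.20% of all genes. Cholangiocyte-like cells, the epithelium of bile ducts, had 3: H2-Aa (0.95, adjusted p = 0.000272), Cd74 (0.75, 0.000492) and H2-Eb1 (0.75, 0.0262), against 0.703%. H2-Aa was at 1988, 1297 and 1657 CPM in cholangiocyte-like cells of Control and at 3476, 1995 and 3942 CPM in HIRA KO, so the areas did not overlap for this gene, as for 4.41% of all genes. Stellate/fibroblast-like cells had 2, H2-Aa (0.76, 0.00211) and Cd74 (0.65, 0.0349), against 1.50%. The unnamed Dcn, Cd5l, C1qc cluster had H2-Aa alone (0.75, 0.0199), against 0.782%; without the block no member was called in this cluster, in stellate/fibroblast-like or in cholangiocyte-like cells, against 0.626%, 0.200% and 0 of all genes. H2-Aa and Cd74 overlapped between genotypes in endothelial-like cells, stellate/fibroblast-like cells and the Dcn, Cd5l, C1qc cluster. The member without overlap, 1 in each of these classes, was H2-DMb1 in endothelial-like cells (3.91% of all genes) and H2-Ob in stellate/fibroblast-like cells (4.91%) and the Dcn, Cd5l, C1qc cluster (4.01%). These accessory genes were near background there, at 0.911, 1.03 and 1.30 times the brightest negative probe. Higher HIRA KO values in all 3 rows were found for 5 of 8 members in endothelial-like cells (11.7% of all genes), and for 4 of 8 in cholangiocyte-like and in stellate/fibroblast-like cells (11.4% each), in monocyte/dendritic-like cells (12.6%) and in the Dcn, Cd5l, C1qc cluster (12.2%). In the large unnamed cluster led by Vegfa, Cxcr1 and Ppara no member was called with or without the block (0.1% of all genes), 2 of 8, H2-Aa and H2-Eb1, were without overlap (5.81%) and 6 of 8 were higher in all 3 rows (13.8%).

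Among the leukocyte classes, Kupffer-like, T/NK-like and monocyte/dendritic-like cells had no member called with or without the block in edgeR; without it 0.101%, 0 and 0 of all genes were called higher, and with it 0.503%, 0 and 0. Kupffer-like cells held H2-Aa at 5834, 3149 and 4198 CPM in Control and at 7176, 4507 and 8540 CPM in HIRA KO, and Cd74 at 16059, 7829 and 12542 CPM against 15116, 9873 and 19440 CPM. For Cd74 the first HIRA KO area was below the first Control area. Higher values in all 3 rows were found for 2 of 8 members in Kupffer-like cells (all genes 9.92%) and for 6 of 8 in T/NK-like cells (12.3%). In monocyte/dendritic-like cells Cd74 was at 18702, 14860 and 22525 CPM in Control and at 22586, 24957 and 25414 CPM in HIRA KO, without overlap. H2-Aa was at 7156, 6726 and 10684 CPM against 10965, 12074 and 10616 CPM, so the areas of the last row were nearly level. In this class 3 of 8 members had no overlap (Cd74, H2-DMa and H2-DMb2), and in T/NK-like cells also 3 (H2-Ab1, H2-Eb1 and H2-Ob), against 5.81% and 4.71% of all genes. Kupffer-like cells had 0 such members (3.41% of all genes). The size of the genotype difference was not tested between classes.

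**Figure D3:**
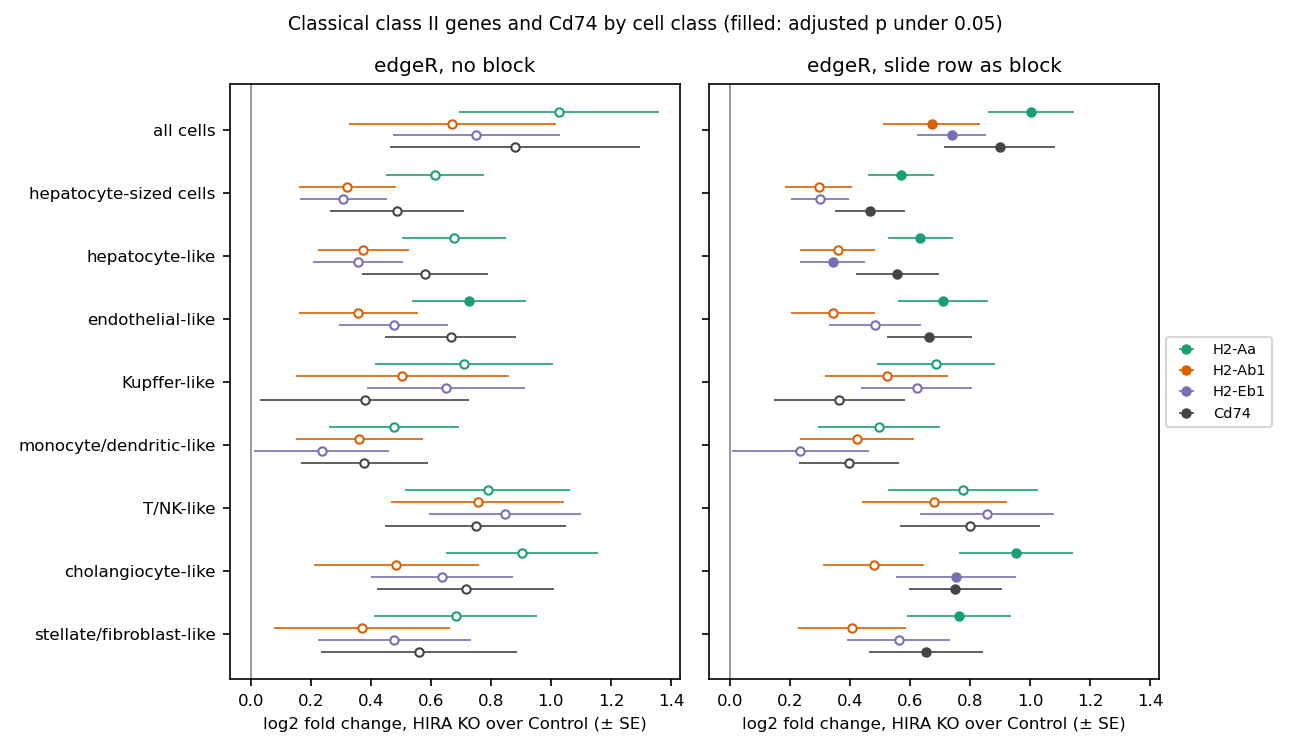
Log2 fold change of HIRA KO over Control with its SE (horizontal axis) for H2-Aa, H2-Ab1, H2-Eb1 and Cd74 in all cells, hepatocyte-sized cells and 7 cell classes, from edgeR without (left) and with (right) the slide row as a block; filled points have an adjusted p under 0.05. All plotted values lie above 0, 1 point is filled on the left (H2-Aa in endothelial-like cells), and H2-Aa is filled on the right in all sets but the Kupffer-like, monocyte/dendritic-like and T/NK-like classes.

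Hepatocytes are the cells that received Cre and lost HIRA by design. The 18219 hepatocyte-sized cells, which are large cells in no named non-hepatocyte class, held H2-Aa at 930, 764 and 816 CPM in Control and at 1311, 819 and 1369 CPM in HIRA KO. Cd74 was at 2001, 1280 and 2089 CPM against 2494, 1528 and 2821 CPM. H2-Ab1 was at 1519, 1402 and 1683 CPM against 1630, 1450 and 2136 CPM, and H2-Eb1 at 921, 831 and 1132 CPM against 1185, 888 and 1170 CPM. As over all cells, the second area was the lowest of each genotype and the groups overlapped. Without the block 0 of 8 members were called (H2-Aa log2 fold change 0.61 ± 0.16, edgeR adjusted p = 0.156), against 0.200% of all genes. DESeq2 called H2-Aa (0.61, adjusted p = 0.00338), against 2.30% of all genes. In that fit 638 of 998 genes had no adjusted p. With the block edgeR called H2-Aa (0.57, adjusted p = 0.00619) and Cd74 (0.47, 0.0301), against 2.30% of all genes. Hepatocyte-sized cells had 0 of 8 members without overlap (3.21% of all genes) and 4 of 8 higher in all 3 rows (6.51%).

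In hepatocyte-like cells, taken by marker genes and not by size, 0 members were called without the block (0.1% of all genes) and 3 with it: H2-Aa (0.63, adjusted p = 2.49e-06), Cd74 (0.56, 0.00376) and H2-Eb1 (0.34, 0.0435), against 2.61%. None of the members was without overlap (2.81% of all genes), and 4 of 8 were higher in all 3 rows (6.11%). Hepatocyte-like cells with a leukocyte among their 5 nearest cells were compared with the others. The mean log2 difference in summed level, near minus not near, was 0.21 ± 0.12 (SD) and was positive in 6 of 6 areas (sign-flip exact permutation p = 0.03125, adjusted 0.0521 over 5 classes). Hepatocyte-like cells with no leukocyte that near were at 7453, 6182 and 6917 CPM in Control and at 8530, 6403 and 8746 CPM in HIRA KO (exact permutation p = 0.3). In endothelial-like cells the difference was 0.23 ± 0.15, positive in 6 of 6 areas with the same p. This neighbour comparison was added after seeing the data, and how much RNA of neighbouring cells entered the hepatocyte and endothelial values was not tested.

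The same comparison was made for biliary cells. In cells with a cholangiocyte-like cell among their 20 nearest, the summed level differed from that in other non-biliary cells by a mean log2 of 0.04 ± 0.20 (SD), with 3 of 6 areas higher near (sign-flip exact permutation p = 0.656). Control areas gave 0.07 ± 0.23 and HIRA KO areas 0.01 ± 0.22 (exact permutation p = 0.7 for the genotypes). Stellate/fibroblast-like cells near biliary cells were higher in 5 of 6 areas, by 0.21 ± 0.28 (p = 0.0938, exact permutation; adjusted 0.469 over 5 classes).

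The cells that held the transcripts were traced by shares of the member counts. All leukocyte clusters together held 46.8%, 23.3% and 43.4% in Control and 56.5%, 36.6% and 64.7% in HIRA KO (means of 37.8 ± 12.7% and 52.6 ± 14.5%; exact permutation p = 0.3). B-like cells held 4.76%, 0.900% and 2.61% in Control and 15.7%, 1.76% and 16.1% in HIRA KO, where they made up 1.34%, 0.338% and 0.742% against 2.98%, 0.465% and 3.23% of cells. HIRA KO areas 1 and 3 were thus the richest in B-like cells, and the second areas the poorest. From this assay the paper reports a significant drop in B cells with HIRA KO, the opposite direction. B-like cells averaged 0.807% of all cells for Control against 2.22% for HIRA KO (exact permutation p = 0.3). At a lower cluster resolution this was 2.34% against 4.86%, and in clusters made with the members 3.49% against 8.28%. Classes set by the marker list with most counts gave 5.88% against 5.50%. Why the paper's result differs was not tested. Kupffer-like cells held 15.8 ± 2.13% of the member counts for Control and 14.9 ± 9.48% for HIRA KO, and hepatocyte-like cells 25.9 ± 14.3% and 22.7 ± 6.20%. The share in endothelial-like cells was lower in HIRA KO without overlap, at 6.32%, 8.16% and 7.06% in Control against 3.79%, 5.40% and 3.90% (exact permutation p = 0.1), and endothelial-like cells were also a smaller share of all cells, 10.2 ± 1.62% against 13.9 ± 1.21%.

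The leukocyte share was recomputed with classes made in other ways. With the members allowed into the clustering it came to 45.9 ± 16.1% for Control against 62.2 ± 12.3% for HIRA KO, and at a lower cluster resolution to 36.3 ± 12.3% and 51.3 ± 14.6% (each exact permutation p = 0.3). With classes set by the marker list with most counts it was nearly level, at 58.5 ± 1.92% and 59.8 ± 11.7% (p = 0.9). Holding the class make-up of every area at its mean left summed levels of 13110 ± 2823 CPM for Control against 17582 ± 3842 for HIRA KO, and holding the class levels at their means left 14244 ± 2309 and 16469 ± 2248 (each exact permutation p = 0.3). Outside B-like cells the level was 12418 ± 3672 against 17629 ± 4990 CPM (exact permutation p = 0.3).

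**Figure D4:**
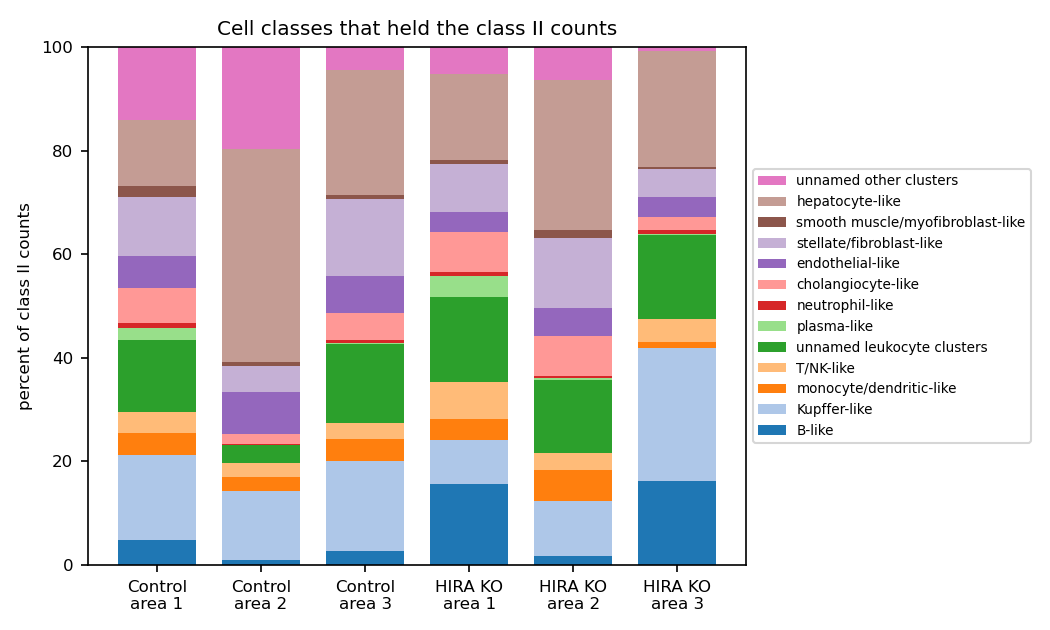
Share of the 8 members' counts in percent (vertical axis) held by each group of cell classes in each of the 6 tissue areas (horizontal axis). B-like cells hold 15.7% and 16.1% in HIRA KO areas 1 and 3 and at most 4.76% in the other areas.

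Within an area the summed level also varied between fields of view, from 11898 to 17395 CPM in Control area 1, from 6431 to 10368 in Control area 2 and from 11955 to 20565 in Control area 3. In HIRA KO it ran from 15239 to 40759 in area 1, from 8215 to 16041 in area 2 and from 16359 to 45532 in area 3. The highest fields of HIRA KO areas 1 and 3 were 2.67-fold and 2.78-fold above the lowest of their area, and both were rich in B-like cells, with 15.3% and 15.9% of cells. All fields of HIRA KO areas 1 and 3 were above all fields of either second area except for the highest HIRA KO area 2 field, which at 16041 CPM exceeded the lowest of HIRA KO area 1.

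**Figure D5:**
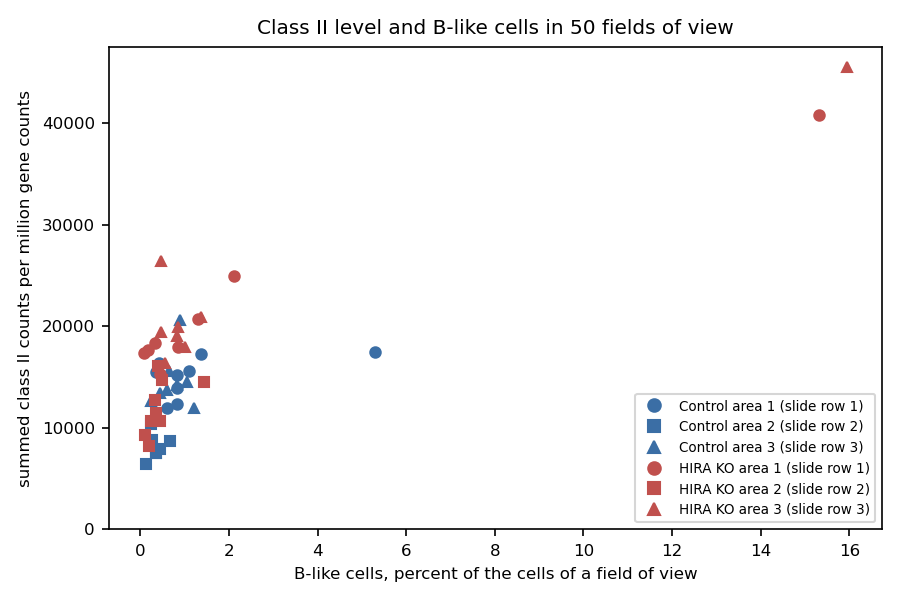
Summed member level in CPM in each of the 50 fields of view (vertical axis) against the share of B-like cells in the field in percent (horizontal axis), coloured by genotype and marked by slide row. Fields at 40759 and 45532 CPM stand apart, with B-like shares of 15.3% and 15.9%.

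Stain intensities gave a protein measure of the same cells. In cells with at least 5 member counts the median CD45 stain, the pan-leukocyte protein, was higher than in cells with 0 by a mean log2 of 1.81 ± 0.42 (SD, n = 6 areas), with values from 1.14 to 2.44 and 6 of 6 areas higher (sign-flip exact permutation p = 0.03125, the smallest possible). Outside B-like and T/NK-like cells the difference was 1.64 ± 0.34, again in 6 of 6 areas. The membrane stain with B2M, the light chain of MHC class I, was higher by 0.31 ± 0.15 in 6 of 6 areas with the same p. CD3, a T cell protein, differed by 0.07 ± 0.10 and was higher in 4 of 6 areas. The epithelial stain PanCK fell by 0.11 on the log2 scale and was lower in 6 of 6 areas. Class II-rich cells were also deeper, with a median of 186 gene counts against 75, and the part of depth in the stain differences was not tested.

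Inside cells, member transcripts lay nearer the cell border than the average transcript. The membrane compartment held 22.6 ± 3.36% of member counts and 15.8 ± 2.75% of all gene counts (SD, n = 6 areas), higher in 6 of 6 areas (sign-flip exact permutation p = 0.03125, adjusted 0.0339 over 13 sets of cells). The same held in 12 of the 13 sets, hepatocyte-sized cells included (24.9 ± 5.16% against 16.6 ± 3.61%). The exception was B-like cells, with 9.19 ± 3.33% against 8.38 ± 3.46% and 4 of 6 areas. The nuclear share over all cells was 42.6 ± 5.08% for members and 48.3 ± 3.82% for all genes, lower in 6 of 6 areas. The border of a cell is also where counts of a neighbour are most easily assigned, and this was not tested.

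The balance of the I-A chains was compared as a ratio of counts. The log2 ratio of H2-Aa to H2-Ab1 over all cells was -0.62, -0.70 and -0.98 in Control and -0.16, -0.60 and -0.54 in HIRA KO, without overlap (exact permutation p = 0.1, the smallest possible). By the mean the ratio was higher in HIRA KO in 9 of 9 tested classes, and in all 3 rows in 5 of them. This pair was chosen after its values were seen, and classes of 1 area share background and neighbouring RNA, so the count describes these areas only.

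Over 77 sums by class and area from 16 classes, the genes outside the set whose log2 CPM most resembled the summed level were Cd52 (Pearson r = 0.858), Psap (0.854), Pfn1 (0.817), Fau (0.767) and Sh3bgrl3 (0.734). Cd52 is a surface glycoprotein of leukocytes, and Psap encodes the precursor of lysosomal saposins. Among the members, which enter the sum themselves, r was 0.993 for Cd74, 0.986 for H2-Ab1 and 0.498 for H2-DMb2, the lowest. These correlations describe sums that share areas and depth.

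Genes around the class II pathway did not pass the edgeR test over all cells in any of the 5 lists examined, without the block. Of 4 tested endosome and loading genes, all had fold changes above 0 (median log2 fold change 0.19), led by Lamp2, a lysosomal membrane protein (0.35 ± 0.13 SE, adjusted p = 0.572), and Ctsd, the protease cathepsin D (0.29 ± 0.18, adjusted p = 0.724). Of 8 class I genes, 7 were above 0 (median 0.15), with H2-D1, a classical class I heavy chain, at 0.51 ± 0.26 (adjusted p = 0.672). Nlrc5 was at -0.16 ± 0.10 (adjusted p = 0.720). With the row block H2-D1 rose by 0.53 (adjusted p = 0.049), where 1.60% of all genes were called higher. Of 11 interferon gamma genes, 9 were above 0 (median 0.08), with Cxcl9, an interferon-induced chemokine, at 0.53 ± 0.25 (adjusted p = 0.671). Ifngr1 was at 0.16 ± 0.12 (adjusted p = 0.826). Co-receptors and costimulators had 6 of 13 above 0 (median -0.06), with Ctla4 at -0.20 ± 0.10 (adjusted p = 0.672) and Cd40 at 0.20 ± 0.14 (0.811). Dendritic cell genes had 2 of 8 above 0 (median -0.08). Cd209a, a lectin of monocyte-derived dendritic cells, was at -0.17 ± 0.11 (adjusted p = 0.768) and Cd83 at 0.16 ± 0.11 (0.792). Over all genes 47.6% were above 0.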

How the data were processed

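Per the file headers, the deposited tables hold the raw count of every target in every segmented cell, the mean stain intensity per cell, cell positions, and the compartment of each transcript; decoding and segmentation were done on the CosMx platform, with software versions not given in the sources used here. Cells with fewer than 20 counts, or with more than 5 times the geometric mean area, were left out (2215 and 252 of 52132 cells). Cells were clustered with leidenalg 0.10.2 at a resolution of 1.6 without the 8 members, and clusters with at least 3 of their class's markers were named. For each class, counts were added up by area and tested with edgeR 4.0.16 in R 4.3.3 (TMM, filterByExpr); DESeq2 1.42.0 was an alternative. Fits were tested on simulated data. Single values were tested by two-sided exact permutation of areas or sign flips over areas. The slide rows were taken to pair the areas. Over 990 other genes, deviations of Control and HIRA KO areas of the same slide row correlated at 0.543, 0.377 and 0.338, and other pairs at -0.40 to 0.03. Deviations from a group mean cancel out within the group, so high values in some pairs lower those in others. The pairing itself was not tested. All 8 members are named with values; list genes are named where called or among the 2 with the lowest p in their list, and likeness takes the top 5. The members, lists and tests were chosen with earlier results of these data known. Promoter and gene positions come from RefSeq and GENCODE. Precision is limited by counting and by 3 areas per group. Cell outlines were not used.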

Additional observations from a re-analysis of the deposited data

Results flagged for a closer look

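In 3 of the 6 tissue areas 1 field of view stood apart from the others of its area in summed class II level, by Dixon's 95% criterion, which marks about 1 in 20 groups by chance. Field 39 of Control area 3 reached 20565 CPM, where the next field of that area had 15557. It held 0.888% B-like cells, and without them its level was 20123 CPM. Field 14 of HIRA KO area 1 reached 40759 CPM against 24930 in the next, and 232 B-like cells, 15.3% of the field, held 49.1% of its class II counts. Field 45 of HIRA KO area 3 reached 45532 CPM against 26392 in the next, with 191 B-like cells, 15.9% of the field, holding 44.5%. Outside B-like cells these HIRA KO fields were at 27040 and 31588 CPM. Without the 3 fields, a setting chosen after seeing the data, the summed level averaged 12386 ± 3665 CPM over the Control areas and 16956 ± 4238 over the HIRA KO areas (SD, n = 3; exact permutation p = 0.3).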

How the results depend on the processing

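Of 229 alternative values of the results that answer a comparison, 188 were unchanged. For numbers of members called this means the same number, which without the block was 0 in all sets tested but endothelial-like cells. For the other results it means the same direction and side of the threshold. Among these other results, the summed levels and shares could change direction only. Exact permutation of the areas gives no p under 0.1, so their side of the threshold was fixed in advance. With slide row as a block, the rows pairing the areas, the members called numbered 4 over all cells, 2 in hepatocyte-sized, 3 in cholangiocyte-like, 2 in endothelial-like, 3 in hepatocyte-like and 2 in stellate/fibroblast-like cells, and 1 in the Dcn, Cd5l, C1qc cluster; the block changed no other class. DESeq2 called 1 member in hepatocyte-sized, 1 in hepatocyte-like and 0 in endothelial-like cells, against 23, 25 and 1 of 998 genes. It gave no adjusted p for 638 of these genes in hepatocyte-sized and 774 in hepatocyte-like cells, so these counts rest on the remaining genes. Marker classes gave 1 in hepatocyte-like, 1 in monocyte/dendritic-like and 0 in endothelial-like cells, against 0.200%, 0.701% and 0 of all genes. Clusters made with the members gave 1 in hepatocyte-like and 0 in endothelial-like cells, against 1.10% and 0. The endothelial-like count was also 0 with cells of at least 50 counts, without membrane transcripts and at a lower cluster resolution. Leaving out 1 area moved the count between 0 and 1 in hepatocyte-sized cells (1 without HIRA KO area 2, against 0.200% of all genes). In hepatocyte-like cells it ran from 0 to 2 (2 without HIRA KO area 2, against 0.501%). In endothelial-like cells it ran from 0 to 1 (1 without Control area 1 or HIRA KO area 2, against 0.200% in each). The difference in leukocyte share (14.7 points) was 16.3 points in clusters made with the members and 1.24 with marker classes, that in B-like share (8.46 points) was 17.4 in clusters made with the members, whose B-like cluster was led by the members themselves, and that in hepatocyte-like share (-3.24 points) became 4.85 with marker classes. Leaving out 1 area, the leukocyte share difference ran from 7.48 (without Control area 2; 8.68 without HIRA KO area 3) to 22.8 (without HIRA KO area 2), the B-like one from 5.99 (without HIRA KO area 3) to 13.2 (without HIRA KO area 2), the Kupffer-like share difference ran from -6.34 to 2.35 points (above 0 without HIRA KO area 1 or 2), the hepatocyte-like one from -9.87 to 4.30 (above 0 without Control area 2), and the log2 difference near biliary cells from -0.016 (without Control area 3) to 0.093. The CD45 difference stayed between 1.69 and 1.94 and that of B2M between 0.28 and 0.36, at p = 0.0625, the smallest exact permutation p that 5 areas allow. H2-Ab1 in endothelial-like cells had a log2 fold change of -0.024 in clusters made with the members. Of 768 other fold changes of the classical chains and Cd74 or of all cells, 732 kept direction and side. Of 536 class values of the accessory genes 76 changed sign, none of them called. With library size alone as scaling, the median of all genes moved to -0.12 and that of the members to 0.38. The cause of these changes was not tested. Depth limits the accessory genes, whose counts lay near the negative probes over all cells and in hepatocyte-like and endothelial-like cells. They stood higher in some leukocyte clusters. Against the brightest negative probe they ran from 1.91 (H2-Ob) to 3.18 (H2-DMa) in monocyte/dendritic-like cells. In the S100a4, Cd52, Crip1 cluster they ran from 3.30 (H2-Ob) to 4.85 (H2-DMa).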
